A study of Gallus gallus and Anas platyrhynchos and Coturnix japonica with 43 samples.

Results

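Splicing factors and heterogeneous nuclear ribonucleoproteins (hnRNPs) were followed on the Del-Mar chicken cDNA microarray across tissues and bird species. Members were all spots whose annotated gene symbol begins with SRSF, HNRNP, SNRP, SF3A or SF3B, which gave 29 genes on 55 spots and 54 different clones, of 6428 named genes on 10601 named spots and 19200 spots in all. They comprise 8 SR proteins, 11 hnRNP proteins, 5 Sm and other U snRNP proteins and 5 subunits of SF3. The rule reads gene symbols and no measured value, but it was chosen with earlier results of these data known. In the current chicken gene table (GRCg7b) 45 genes would match the same rule, and the other members of these families are not analysed here.

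The study hybridised 43 arrays, each with Cy3-labelled cDNA of 1 bird tissue and a Cy5-labelled reference pool made from 4 chicken tissues (hypothalamus, liver, breast muscle and abdominal fat), and it asked how an array of chicken clones reads tissues of other orders of birds. Chicken liver, breast muscle and abdominal fat (4 arrays each) came from control broiler cockerels of a Ross x Cobb cross at 6 weeks of age, and chicken hypothalamus (4 arrays) from males at 9 weeks of a line selected for leanness. White turkey, Japanese quail and duck gave liver (4 arrays each) and hypothalamus (3 each), and American kestrel and Tree sparrow gave liver (3 each). The quail were randomly bred and kept in cages of mixed sex and later singly, the ducks lived in floor pens, and the kestrels and sparrows came from captive colonies. The sources used here give neither the age at sampling nor the sex of these birds. No drug treatment or altered gene is named for any group. Chicken hypothalamus differs from the other chicken tissues in line and age as well as in tissue, and RNA of muscle and fat was purified on caesium chloride but that of liver and hypothalamus on columns, so these cannot be told apart. In birds other than chicken, a lower ratio from a poorer match of the RNA to the chicken clone and one from less RNA cannot be told apart either.

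Splicing removes introns from pre-mRNA and is carried out by the spliceosome, whose U1, U2, U4, U5 and U6 snRNPs each join a small RNA with proteins. Sm proteins form a ring around most of these RNAs, U6 being the exception, and SF3a and SF3b belong to the U2 snRNP that recognises the branch point. SR proteins bind exons and mostly favour the use of nearby splice sites, whereas hnRNP proteins coat the transcript and often oppose them. Both families are expressed in nearly all cells, and their balance is known from mammals to shift splice site choice between tissues, brain and muscle among them. The roles given for single proteins are known mainly from mammals.

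All values are log2 ratios to the reference, centred on the median of each array and averaged over the clones of a gene, so 0 is the median spot of that array. They read likely as sample over reference. The dyes were not swapped, so a sign shared by nearly all arrays cannot be told apart from a dye effect of the spot. The median of the liver marker list lay at 0.49 to 1.23 on the chicken liver arrays, that of the neuronal list at 0.34 to 1.15 on chicken hypothalamus and that of the adipocyte list at 0.19 to 1.11 on chicken fat. The lowest correlation between arrays was -0.398, and the 11 of 903 pairs under -0.3 held arrays of different groups. Chicken muscle replicate 4 had a muscle list median of -0.43, where replicates 1 to 3 had 0.88 to 1.05, and sparrow liver replicate 1 had one of 0.87. Duck hypothalamus replicate 3 had a neuronal list median of -0.52, against 0.35 and 0.76. Quail hypothalamus replicate 3 had one of -0.35, against 0.42 and 1.14. Quail liver replicate 2 had one of 0.62, where the other quail livers had -1.73 to -0.70. Chicken liver replicate 3 had a glia and myelin list median of 0.055, where the other chicken livers had -1.90 to -1.23. The liver list lay below 0 on all kestrel (-1.56 to -1.08) and sparrow (-1.74 to -0.94) liver arrays. Replicates within a group correlated at a median of 0.30 over 57 pairs of arrays, from -0.17 to 0.63. In bulk tissue, fewer cells of a type and less RNA per cell cannot be told apart. No label states whether the arrays of a group stand for separate birds, so the p-values cover only the scatter between the samples at hand, which may be technical.

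Relative to the scatter between arrays of a group, splicing factors differed between the groups about as much as other genes did. The median moderated F over the 12 groups was 1.16 for members and 1.06 for all genes. Over the 12 groups, 0 of 29 members passed an adjusted p under 0.05 in limma, where 4.78% of all genes did, and 3 members (SF3A2, SRSF7L and SRSF1) passed an unadjusted p under 0.05, where 14% of all genes did. The range between a member's lowest and highest group mean had a median of 0.959, against 1.03 over all genes, and the within-group SD had a median of 0.570, against 0.574. A range of about 2-fold between the 12 groups was thus the median for members and for all genes, against a replicate SD of more than 0.5 on the log2 scale. With median F values of 1.16 and 1.06, a range of this size is not set apart from the scatter between replicates. It does not show that a typical gene differed 2-fold between groups. Limma's array weights gave another count, 9 members and 2018 genes. Those weights did not converge and gave quail hypothalamus replicate 2 a weight of 33.5 when the next highest was 3.27; with weights drawn towards equality (0.678 to 1.38) the count was again 0. In 1 refit chicken muscle 4, sparrow liver 1 and duck hypothalamus 3 were left out, called below the 3 arrays that stood apart. There 0 members passed in each of the 22 comparisons. Other arrays that departed by their markers, such as quail liver 2, quail hypothalamus 3 and chicken liver 3, stayed in it.

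**Figure D1:**
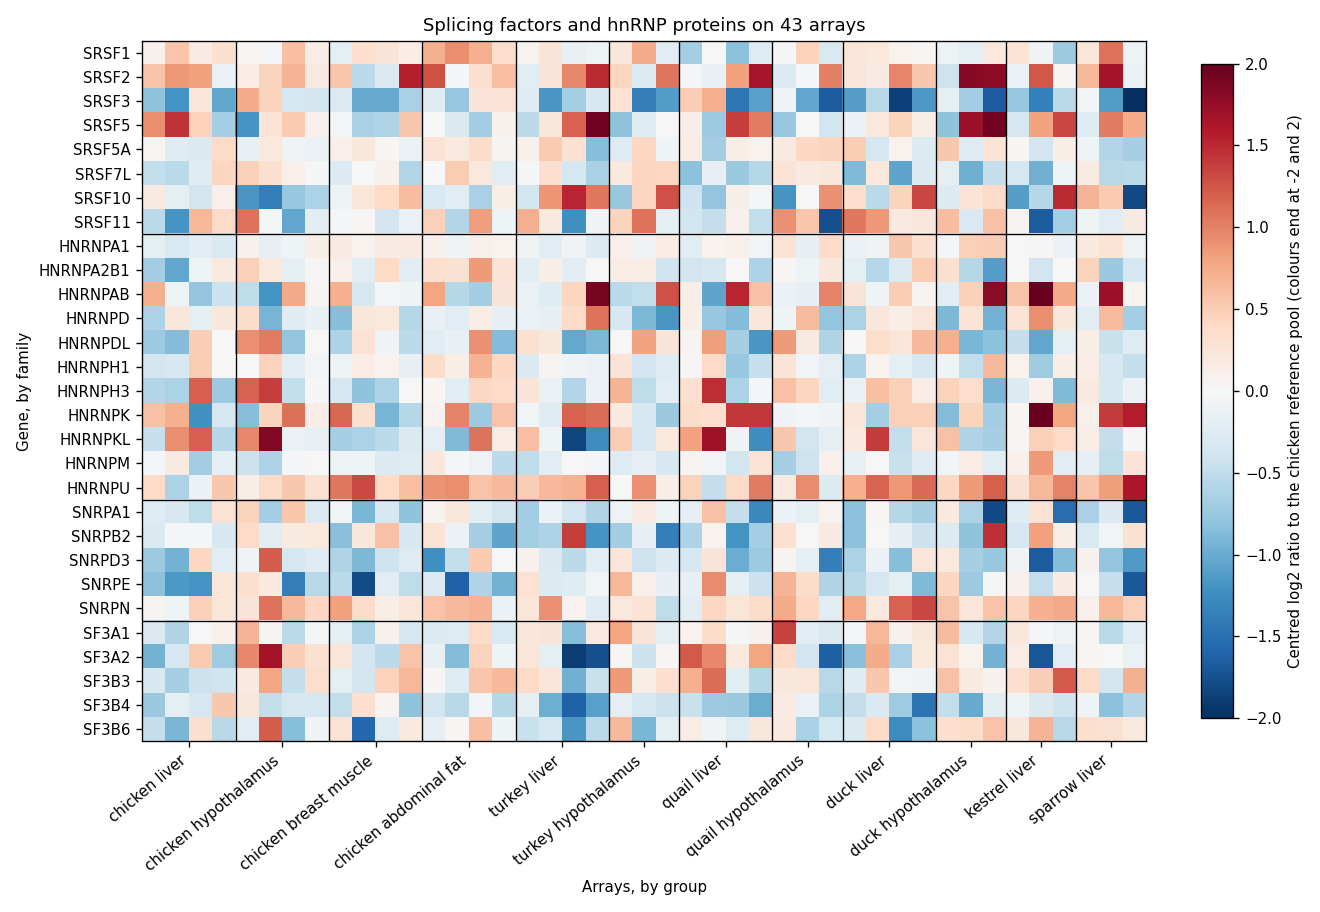
Centred log2 ratio of the 29 members (rows, by family) on the 43 arrays (columns, by group), from blue (below the array median) to red (above it). HNRNPU is above 0 on 39 arrays, SNRPN on 37 and SRSF2 on 30, and SF3B4 is below 0 on 38 arrays and SRSF3 on 35. Such shared signs cannot be told apart from a dye effect of the spots.

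Of the 8 SR proteins, SRSF7L, SRSF1, SRSF10 and SRSF3 were among the 10 members with the highest F, and SRSF2 had the lowest. SRSF1, an exon-binding activator of splicing, and SRSF3, which also helps export mRNA, are each on 2 clones, as is SRSF7L, which the chicken gene table lists with the older name SFRS7. SRSF10 is known from mammals as a splicing repressor that acts after heat shock. SRSF2 was above 0 in the mean of all 12 groups and on 30 of 43 arrays (adjusted p = 0.994). SRSF5 had group means from -0.38 in quail hypothalamus to 0.95 in duck hypothalamus with a within-group SD of 0.79. SRSF11 ran from -0.76 in kestrel liver to 0.59 in duck liver (SD 0.71), and SRSF5A from -0.44 in sparrow liver to 0.35 in quail hypothalamus (SD 0.34).

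SRSF7L on the chicken arrays stood at -0.49, -0.53, -0.24 and 0.44 in liver, 0.47, 0.32, 0.094 and -0.026 in hypothalamus, -0.27, 0.01, 0.093 and -0.58 in breast muscle and -0.0013, 0.50, 0.21 and -0.23 in abdominal fat. For SRSF7L, the livers of the other birds gave -0.042, 0.33, -0.35 and -0.64 in turkey, -0.81, -0.16, -0.74 and -0.57 in quail, -0.89, 0.21, -1.06 and -0.29 in duck, -0.35, -0.96 and -0.085 in kestrel and 0.17, -0.56 and -0.53 in sparrow. Their hypothalami gave SRSF7L at 0.20, 0.43 and 0.41 in turkey, 0.28, 0.19 and 0.22 in quail and -0.18, -0.98 and -0.48 in duck. All turkey and quail hypothalamus arrays lay above 0 and all quail livers below 0, without overlap between quail liver and quail hypothalamus, while all 3 duck hypothalami were below 0. The adjusted p over the 12 groups was 0.287.

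SRSF1 on the chicken arrays stood at 0.087, 0.55, 0.16 and 0.32 in liver, 0.035, -0.027, 0.60 and 0.14 in hypothalamus, -0.18, 0.33, 0.26 and 0.15 in breast muscle and 0.71, 0.93, 0.71 and 0.35 in abdominal fat. For SRSF1, the livers of the other birds gave 0.064, 0.25, -0.14 and -0.11 in turkey, -0.68, 0.015, -0.82 and -0.26 in quail, 0.24, 0.21, 0.066 and 0.028 in duck, 0.27, -0.076 and -0.73 in kestrel and 0.25, 1.09 and -0.11 in sparrow. Their hypothalami gave SRSF1 at 0.23, 0.74 and -0.23 in turkey, -0.035, 0.47 and -0.305 in quail and -0.095, -0.20 and 0.21 in duck. Chicken fat was high on all 4 arrays, and in the other chicken tissues only 1 liver and 1 hypothalamus array lay above the lowest fat array, while quail liver was the lowest group, with 3 of 4 arrays below 0. In chicken 14 of 16 arrays lay above 0 (adjusted p = 0.354 over the 12 groups).

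SRSF10 on the chicken arrays stood at 0.18, -0.19, -0.37 and 0.095 in liver, -1.17, -1.37, -0.76 and -0.63 in hypothalamus, -0.10, 0.24, 0.40 and 0.61 in breast muscle and -0.31, -0.22, -0.66 and 0.12 in abdominal fat. For SRSF10, the livers of the other birds gave -0.39, 0.88, 1.53 and 1.05 in turkey, -0.42, -0.79, 0.11 and -0.028 in quail, 0.36, -0.53, 0.44 and 1.33 in duck, -1.10, -0.57 and 1.49 in kestrel and 0.68, 0.52 and -1.80 in sparrow. Their hypothalami gave SRSF10 at -0.75, 0.43 and 1.28 in turkey, -1.17, -0.0038 and 0.91 in quail and -0.27, 0.27 and 0.39 in duck. The 4 chicken hypothalamus arrays were all below 0 and overlapped the other chicken tissues only at 1 fat array. In each group of the other species the arrays reached from below to above 0, most widely in sparrow and kestrel liver (adjusted p = 0.627 over the 12 groups).

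SRSF3 on the chicken arrays stood at -0.81, -1.20, 0.24 and -1.03 in liver, 0.74, 0.44, -0.32 and -0.37 in hypothalamus, -0.27, -1.01, -1.01 and -0.65 in breast muscle and -0.25, -0.75, 0.25 and 0.29 in abdominal fat. For SRSF3, the livers of the other birds gave -0.26, -1.16, -0.68 and -0.32 in turkey, 0.49, 0.72, -1.44 and -1.09 in quail, -1.09, -0.55, -1.87 and -1.14 in duck, -0.75, -1.36 and -0.53 in kestrel and -0.059, -1.11 and -2.04 in sparrow. Their hypothalami gave SRSF3 at 0.29, -1.38 and -1.12 in turkey, -0.072, -1.04 and -1.67 in quail and -0.19, -0.70 and -1.66 in duck. SRSF3 was below 0 on 35 of 43 arrays, and chicken hypothalamus was the only group with a mean above 0. Duck liver, the lowest group, lay below every chicken hypothalamus array (adjusted p = 0.739).

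Among hnRNP proteins, HNRNPU stood out by its sign, which cannot be told apart from a dye effect of its spot. HNRNPU, which binds RNA and the nuclear matrix and is also called scaffold attachment factor A, was above 0 in the mean of all 12 groups and on 39 of 43 arrays. HNRNPU on the chicken arrays stood at 0.39, -0.63, -0.12 and 0.53 in liver, 0.13, 0.38, 0.53 and 0.31 in hypothalamus, 1.06, 1.32, 0.41 and 0.60 in breast muscle and 0.90, 0.94, 0.57 and 0.64 in abdominal fat. For HNRNPU, the livers of the other birds gave 0.49, 0.64, 0.70 and 1.20 in turkey, 0.46, -0.48, 0.38 and 1.04 in quail, 0.70, 1.16, 0.86 and 1.14 in duck, 0.31, 0.66 and 0.995 in kestrel and 0.56, 0.84 and 1.61 in sparrow. Their hypothalami gave HNRNPU at 0.0022, 0.91 and 0.12 in turkey, 0.18, 0.95 and -0.28 in quail and 0.41, 0.85 and 1.20 in duck. Chicken liver was the lowest group, at 0.044 ± 0.53 (SD, n = 4), and sparrow liver the highest, at 1.002 ± 0.55 (SD, n = 3), and all duck and sparrow livers lay above every chicken liver. Over the 12 groups the adjusted p was 0.498.

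HNRNPK on the chicken arrays stood at 0.58, 0.70, -1.21 and -0.33 in liver, -0.85, 0.44, 1.11 and 0.14 in hypothalamus, 1.14, 0.33, -0.92 and -0.57 in breast muscle and 0.076, 0.99, -0.73 and 0.58 in abdominal fat. For HNRNPK, the livers of the other birds gave -0.052, -0.24, 1.17 and 1.12 in turkey, 0.36, 0.33, 1.41 and 1.41 in quail, 0.24, -0.68, 0.48 and 0.48 in duck, 0.034, 1.97 and 0.80 in kestrel and 0.10, 1.405 and 1.57 in sparrow. Their hypothalami gave HNRNPK at 0.19, -0.33 and -0.75 in turkey, -0.069, -0.023 and -0.065 in quail and -0.87, 0.45 and -0.69 in duck. HNRNPK, which binds C-rich RNA, was above 0 on 15 of 18 livers of other species and on 2 of their 9 hypothalami. Within each chicken tissue the arrays lay on both sides of 0 (adjusted p = 0.629 over the 12 groups).

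HNRNPD on the chicken arrays stood at -0.62, 0.22, -0.19 and 0.23 in liver, 0.36, -0.93, -0.24 and -0.15 in hypothalamus, -0.85, 0.23, 0.21 and -0.58 in breast muscle and -0.16, -0.21, 0.14 and -0.17 in abdominal fat. For HNRNPD, the livers of the other birds gave -0.13, -0.17, 0.38 and 1.09 in turkey, 0.11, -0.77, -0.86 and 0.24 in quail, -0.64, 0.22, 0.14 and 0.24 in duck, 0.27, 0.93 and 0.22 in kestrel and -0.23, 0.63 and -0.69 in sparrow. Their hypothalami gave HNRNPD at -0.32, -0.89 and -1.17 in turkey, -0.089, 0.63 and -0.79 in quail and -0.90, 0.27 and -0.95 in duck. HNRNPD, also known as AUF1, binds AU-rich elements and hastens or slows the decay of mRNAs. Turkey hypothalamus was below 0 on all 3 arrays and kestrel liver above 0 on all 3 (adjusted p = 0.729).

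The other 8 hnRNP members had lower F values. HNRNPA1, a shuttling repressor of splicing measured on 4 clones, had the smallest within-group SD of all members, 0.17. That SD is of a mean over clones that correlated at a median of -0.27 (-0.65 to 0.34). It does not show that each clone was steady. Group means of HNRNPA1 reached from -0.25 in chicken liver to 0.32 in duck hypothalamus. HNRNPA2B1, a close relative of HNRNPA1 on 5 clones, ran from -0.45 in duck hypothalamus to 0.44 in chicken fat. HNRNPH1 and HNRNPH3, which bind runs of G, covered 0.68 and 0.95 between group means, and HNRNPM covered 0.57. HNRNPAB, on 1 clone, had the largest within-group SD of all members, 0.81, with 1.14 ± 0.83 (SD, n = 3) in kestrel liver and -0.22 ± 0.82 (SD, n = 4) in chicken hypothalamus. HNRNPDL, the neighbour of HNRNPD on chromosome 4 in GRCg7b, ran from -0.57 in kestrel liver to 0.36 in turkey hypothalamus. HNRNPKL lies on chromosome W in that assembly and HNRNPK on Z, and roosters carry no W. The HNRNPKL clone gave 0.27 ± 0.92 (SD, n = 4) in chicken liver, 0.63 ± 0.96 (SD, n = 4) in hypothalamus, -0.52 ± 0.17 (SD, n = 4) in muscle and 0.044 ± 0.82 (SD, n = 4) in fat, all tissues of males. RNA of both genes may bind both clones, as may that of other close relatives here, which was not tested.

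**Figure D2:**
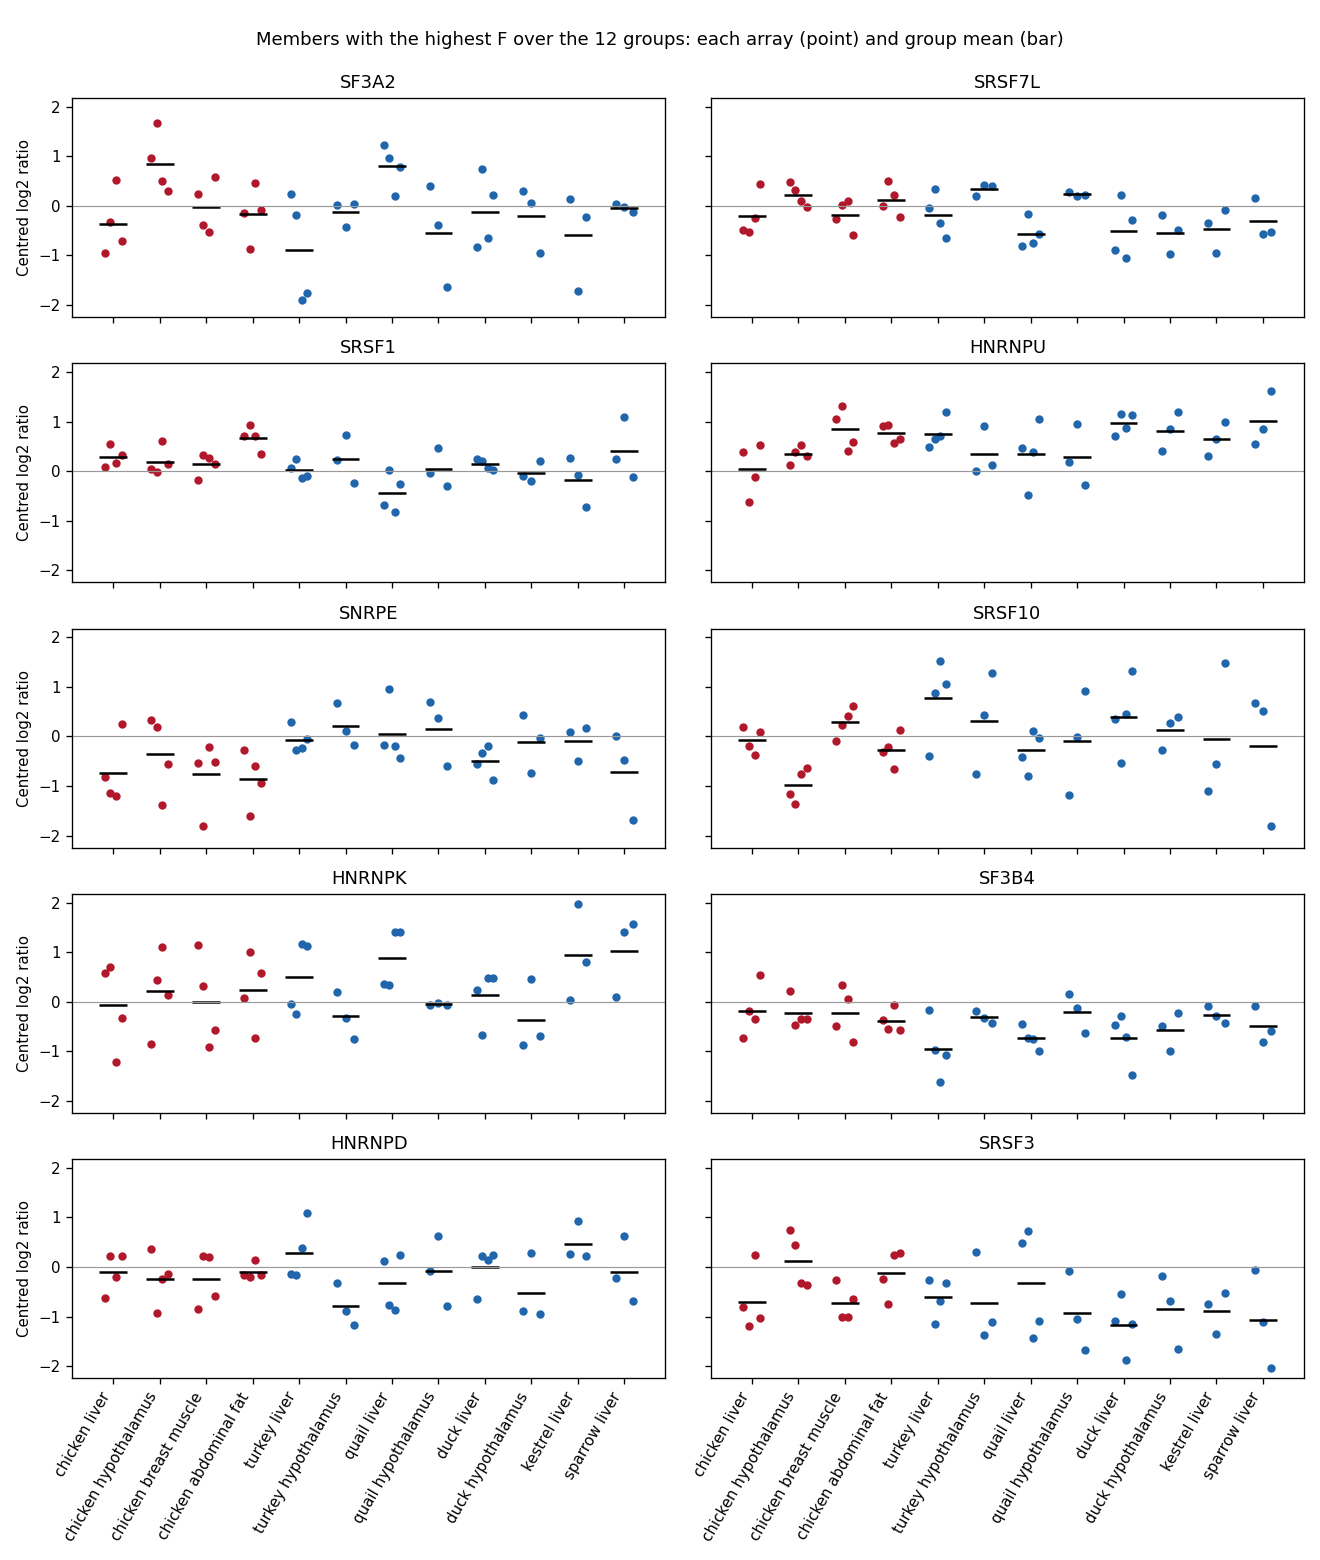
Centred log2 ratio on each array (points; chicken in red, other species in blue) and group mean (bars) of the 10 members with the highest moderated F over the 12 groups. HNRNPU lies above 0 on 39 arrays, SF3B4 below 0 on 38 and SRSF3 below 0 on 35, signs that cannot be told apart from a dye effect of the spots. SF3A2 has its highest mean in chicken hypothalamus and its lowest in turkey liver.

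The Sm and other U snRNP proteins were represented by SNRPE, SNRPD3 and SNRPN of the Sm ring and by SNRPA1 and SNRPB2 of the U2 snRNP. SNRPE on the chicken arrays stood at -0.82, -1.15, -1.20 and 0.24 in liver, 0.33, 0.20, -1.38 and -0.56 in hypothalamus, -0.54, -1.80, -0.20 and -0.51 in breast muscle and -0.27, -1.61, -0.60 and -0.94 in abdominal fat. For SNRPE, the livers of the other birds gave 0.28, -0.27, -0.24 and -0.056 in turkey, -0.17, 0.95, -0.20 and -0.43 in quail, -0.55, -0.34, -0.19 and -0.88 in duck, 0.08, -0.49 and 0.16 in kestrel and 0.0005, -0.47 and -1.68 in sparrow. Their hypothalami gave SNRPE at 0.67, 0.10 and -0.16 in turkey, 0.68, 0.37 and -0.59 in quail and 0.43, -0.73 and -0.04 in duck. SNRPE was below 0 on 13 of 16 chicken arrays and above 0 on 5 of 9 hypothalami of other species (adjusted p = 0.607 over the 12 groups). SNRPN, which the chicken gene table also lists as SNRPB, was above 0 on 37 of 43 arrays, with group means from -0.0057 in turkey hypothalamus to 0.87 in duck liver. SNRPD3 and SNRPA1 were each below 0 on 32 arrays and above 0 in the group mean of chicken hypothalamus alone (0.13 ± 0.73 (SD, n = 4) and 0.014 ± 0.59 (SD, n = 4)). SNRPB2 ran from -0.74 in turkey hypothalamus to 0.21 in kestrel liver. Adjusted p-values of these 4 lay between 0.772 and 0.942.

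Of the SF3 subunits, SF3A2, which is on 1 clone, had the highest F of all members. SF3A2 is a zinc finger protein of SF3a, which binds the U2 snRNP next to the branch point. SF3A2 on the chicken arrays stood at -0.95, -0.33, 0.52 and -0.70 in liver, 0.96, 1.67, 0.50 and 0.297 in hypothalamus, 0.24, -0.39, -0.53 and 0.58 in breast muscle and -0.14, -0.87, 0.47 and -0.08 in abdominal fat. For SF3A2, the livers of the other birds gave 0.25, -0.17, -1.89 and -1.75 in turkey, 1.22, 0.97, 0.20 and 0.79 in quail, -0.84, 0.74, -0.64 and 0.22 in duck, 0.14, -1.71 and -0.22 in kestrel and 0.043, -0.016 and -0.13 in sparrow. Their hypothalami gave SF3A2 at 0.023, -0.43 and 0.038 in turkey, 0.40, -0.39 and -1.64 in quail and 0.295, 0.068 and -0.95 in duck. All 4 chicken hypothalamus and all 4 quail liver arrays were above 0, while 2 of 4 turkey livers were the lowest arrays of all. Liver and hypothalamus overlapped in chicken and in quail (adjusted p = 0.26 over the 12 groups).

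SF3B4 on the chicken arrays stood at -0.74, -0.19, -0.36 and 0.54 in liver, 0.22, -0.48, -0.35 and -0.34 in hypothalamus, -0.49, 0.34, 0.058 and -0.81 in breast muscle and -0.36, -0.56, -0.06 and -0.58 in abdominal fat. For SF3B4, the livers of the other birds gave -0.17, -0.97, -1.62 and -1.08 in turkey, -0.44, -0.72, -0.75 and -0.98 in quail, -0.48, -0.29, -0.71 and -1.48 in duck, -0.088, -0.29 and -0.42 in kestrel and -0.09, -0.82 and -0.58 in sparrow. Their hypothalami gave SF3B4 at -0.19, -0.33 and -0.43 in turkey, 0.16, -0.14 and -0.63 in quail and -0.50, -1.001 and -0.22 in duck. SF3B4, an RNA-binding subunit of SF3b, was below 0 in the mean of all 12 groups, on 38 of 43 arrays and on all 18 livers of other species (adjusted p = 0.722). SF3B3, the large scaffold of SF3b, was at -0.45 ± 0.15 (SD, n = 4) in chicken liver and at 0.69 ± 0.47 (SD, n = 3) in kestrel liver, its lowest and highest groups. SF3B6, which contacts the branch point adenosine, ran from -0.62 in turkey liver to 0.42 in duck hypothalamus. SF3A1 had a narrow range, from -0.27 in chicken muscle to 0.29 in turkey hypothalamus.

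In the fit of all 43 arrays no splicing member was set apart by the test among the 4 chicken tissues. In limma 0 of 29 members passed an adjusted p under 0.05 for a difference among them (3.53% of all genes did) and 0 an unadjusted p under 0.05 (10.1% of all genes). By the sign of the difference in means, most members lay below the other tissues in liver and muscle and above them in fat and hypothalamus. These counts are over genes of the same arrays and carry no test. The 4 differences of a gene sum to 0, so they are not separate results. The median difference from the mean of the other 3 tissues was -0.13 in liver (all genes -0.0069), with 23 of 29 members below 0, 0.16 in hypothalamus (0.014), with 19 above 0, -0.13 in muscle (-0.059), with 20 below 0, and 0.099 in fat (-0.028), with 20 above 0. Members above 0 were 20.7% in liver, 65.5% in hypothalamus, 31% in muscle and 69% in fat. For all genes these shares were 49.1%, 51.5%, 43% and 46%. By family, all 5 SF3 subunits and all 5 Sm and U snRNP proteins had positive differences in hypothalamus (medians 0.23 and 0.35), against 6 of 11 hnRNP proteins and 3 of 8 SR proteins (medians 0.011 and -0.11). Replicates differed in how many of the 29 members lay above 0 on the array. In order of replicate number the counts were 9, 7, 14 and 14 in liver and 21, 19, 11 and 12 in hypothalamus. They were 10, 14, 14 and 10 in muscle and 17, 10, 20 and 16 in fat. Many SF3, Sm and U snRNP members moved together between replicates along 1 direction given below (correlations from -0.090 for SNRPB2 to 0.81 for SNRPD3). Their signs are therefore not independent.

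In chicken liver 0 members passed the adjusted p (1.99% of all genes) and 3 the unadjusted p (6.78% of all genes). SF3B3 was lowest with a difference of -0.65 (SE 0.29, 95% interval -1.23 to -0.067, adjusted p = 0.58). HNRNPA2B1 followed at -0.61 (SE 0.24, 95% interval -1.10 to -0.11, adjusted p = 0.411) and HNRNPU at -0.61 (SE 0.26, 95% interval -1.13 to -0.083, adjusted p = 0.504). The highest were SRSF5 at 0.70 (SE 0.43, 95% interval -0.17 to 1.57, adjusted p = 0.96) and SRSF10 at 0.25 (SE 0.41, 95% interval -0.58 to 1.08, adjusted p = 1), both with intervals on both sides of 0. With centring by print block SRSF10 stood at -0.076 there.

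In chicken hypothalamus 0 members passed the adjusted p (0.482% of all genes) and 2 the unadjusted p (8.07% of all genes). SF3A2 had a difference of 1.04 (SE 0.38, 95% interval 0.26 to 1.81, adjusted p = 0.36) and SRSF10 one of -0.97 (SE 0.41, 95% interval -1.80 to -0.14, adjusted p = 0.466). SRSF10 had an SD of 0.25 to 0.35 within each chicken tissue, and a within-group SD of 0.75 over the 12 groups of the main fit. With only the chicken arrays in the fit, the SE of SRSF10 was 0.22 and its adjusted p 0.0366, so that SRSF10 passed. It was then also the 1 member that passed for a difference among the 4 tissues. Of all 6428 genes, 59 passed in hypothalamus in that fit (31 in the main fit) and 263 among the 4 tissues (227 in the main fit). HNRNPKL stood next highest, at 0.70 (-0.18 to 1.58) with its 95% interval, and HNRNPU next lowest, at -0.21 (-0.74 to 0.31).

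In chicken muscle 0 members passed the adjusted p (0.591% of all genes) and 0 the unadjusted p (7.05% of all genes). The lowest differences, with 95% intervals, were those of HNRNPKL at -0.84 (-1.72 to 0.037) and HNRNPH3 at -0.60 (-1.30 to 0.098), and the highest those of SRSF10 at 0.73 (-0.10 to 1.56) and HNRNPU at 0.46 (-0.06 to 0.99). In chicken fat 0 members passed the adjusted p (1.24% of all genes) and 2 the unadjusted p (6.58% of all genes). These were HNRNPA2B1, at 0.53 (SE 0.24, 95% interval 0.035 to 1.02, adjusted p = 0.642), and SRSF1, at 0.47 (SE 0.22, 95% interval 0.028 to 0.92, adjusted p = 0.657). The lowest in fat were SNRPB2 at -0.36 (-1.06 to 0.35) and SRSF5 at -0.31 (-1.19 to 0.56). For muscle and fat, 21 and 22 of the 29 intervals lay within a 2-fold difference either way, against 62.1% and 66.1% of all genes.

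Liver and hypothalamus were measured in chicken, turkey, quail and duck, and their mean difference is the most precise comparison. There 0 members passed the adjusted p (3.42% of all genes) and 1 the unadjusted p (10.5% of all genes). SRSF7L had the lowest difference, -0.43 (SE 0.15, 95% interval -0.74 to -0.12, adjusted p = 0.159), with livers at a mean of -0.37 and hypothalami at 0.062. Duck did not share it, with SRSF7L means of -0.51 in liver and -0.54 in hypothalamus. These means were -0.21 and 0.22 in chicken, -0.18 and 0.35 in turkey and -0.57 and 0.23 in quail. SF3B6 was next lowest, at -0.39 (SE 0.21, 95% interval -0.81 to 0.041, adjusted p = 0.583). HNRNPK was highest, at 0.49 (SE 0.26, 95% interval -0.044 to 1.02, adjusted p = 0.57), followed by SRSF5 at 0.43 (SE 0.28, 95% interval -0.14 to 0.996, adjusted p = 0.7). The median of the members was -0.12 (all genes -0.022), and 20 of 29 were below 0. Above 0 lay 31% of members and 46.3% of all genes. All 5 SF3 subunits were below 0 with a median of -0.31, but the 4 species differed. The SF3 median was -0.42 in chicken, -0.63 in turkey, 0.27 in quail and -0.16 in duck. In quail 3 of the 5 lay above 0, in duck 2, in chicken 1 and in turkey 0. The 95% intervals of 28 of 29 members lay within a 2-fold difference either way, as did those of 92.4% of all genes, so that for these genes a larger mean difference lay outside the per-gene interval. The exception was HNRNPK.

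**Figure D3:**
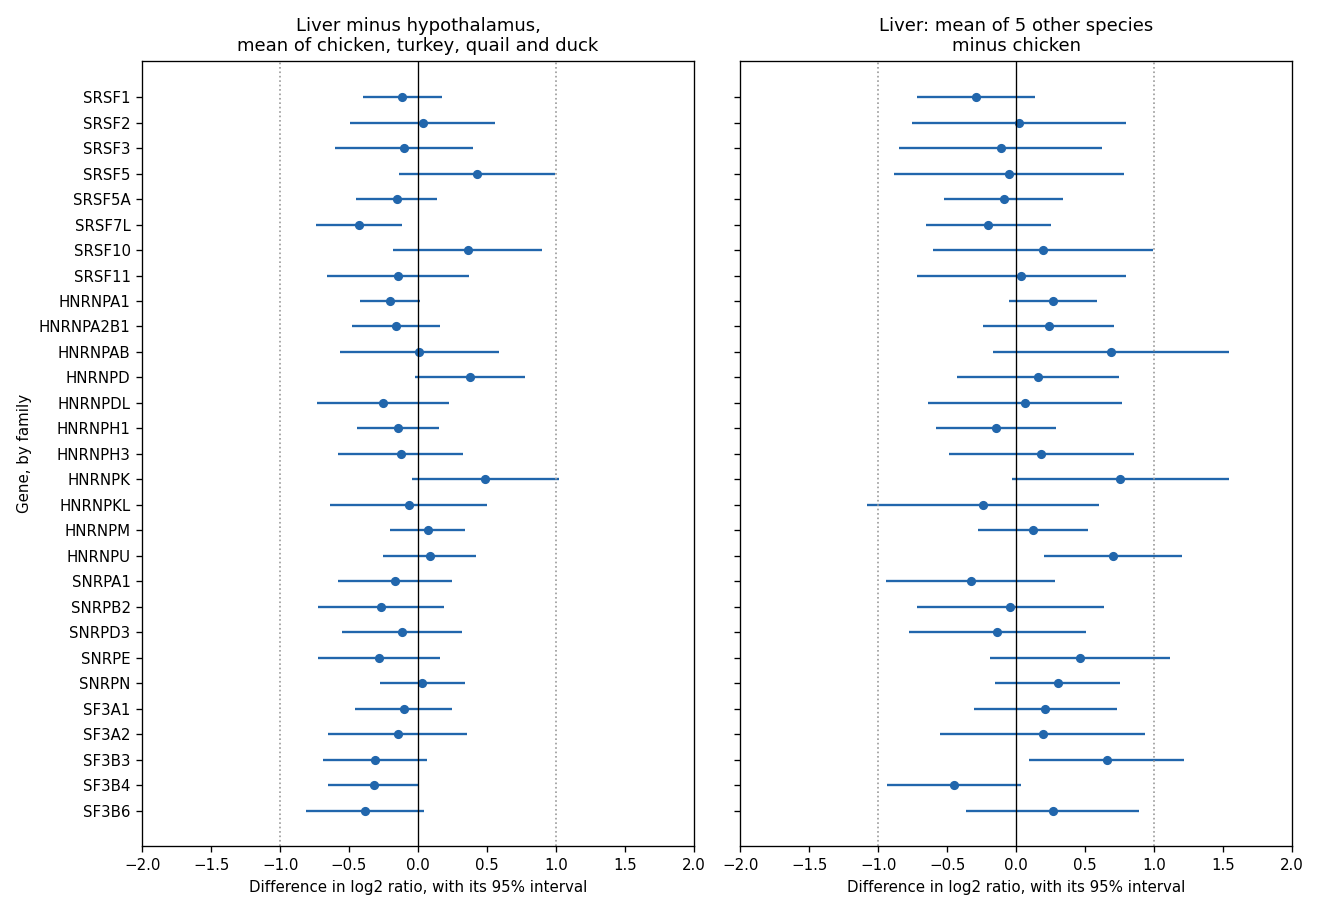
Difference in log2 ratio of each member (point) with its unadjusted 95% interval (line) between liver and hypothalamus over 4 species (left) and between the livers of 5 other species and chicken (right). Dotted lines mark 2-fold differences; on the left only the interval of HNRNPK passes one, and on the right those of HNRNPU and SF3B3 lie above 0.

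Within single species the intervals were wider. In chicken 0 members passed the adjusted p (1.51% of all genes) and 1 the unadjusted p (7.79%), SF3A2 at -1.22 (SE 0.47, 95% interval -2.17 to -0.27, adjusted p = 0.318). SRSF3 was next lowest at -0.82 (-1.76 to 0.12), and SRSF10 and SRSF5 were highest at 0.91 (-0.11 to 1.93) and 0.61 (-0.45 to 1.68). In turkey 0 passed the adjusted p (0.685%) and 1 the unadjusted p (5.93%), HNRNPD at 1.09 (SE 0.40, 95% interval 0.28 to 1.896, adjusted p = 0.434), with SRSF5 next at 1.05 (-0.10 to 2.20). With the replicate number as a block within species, which pairs the turkey arrays, HNRNPD was at 0.82 and SRSF5 at 0.64 (adjusted p = 0.999 for both). Turkey liver replicate 4 has no hypothalamus partner and adds nothing to the difference in that fit. It read highest of the turkey livers, at 1.09 for HNRNPD and 1.94 for SRSF5. SF3A2 and HNRNPKL were lowest in turkey, at -0.77 (-1.80 to 0.25) and -0.77 (-1.93 to 0.39).

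In quail 0 members passed the adjusted p (0.56% of all genes) and 2 the unadjusted p (8.62%). SF3A2 had a difference of 1.34 (SE 0.51, 95% interval 0.31 to 2.36, adjusted p = 0.359) in quail, opposite in sign to that in chicken, and SRSF7L was at -0.80 (SE 0.31, 95% interval -1.43 to -0.18, adjusted p = 0.377). HNRNPK was next highest at 0.93 (-0.15 to 2.02) and SNRPB2 next lowest at -0.76 (-1.69 to 0.17). In duck 0 passed the adjusted p (0% of all genes) and 1 the unadjusted p (5.4%), SF3B6 at -0.92 (SE 0.43, 95% interval -1.79 to -0.052, adjusted p = 0.906). SRSF5 was next lowest at -0.79 (-1.94 to 0.37), and HNRNPDL and HNRNPKL were highest at 0.65 (-0.33 to 1.62) and 0.56 (-0.60 to 1.72). When the liver minus hypothalamus difference itself was compared among the 4 species, 0 members passed the adjusted p (0.0156% of all genes) and 1 the unadjusted p (4.65%). That was SF3A2, whose differences ran from -1.22 in chicken to 1.34 in quail (adjusted p = 0.815).

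Livers of the other species were each set against the same 4 chicken livers, so these differences share their chicken arrays. For the mean of the 5 species 0 members passed the adjusted p (1.23% of all genes) and 2 the unadjusted p (7.93% of all genes). HNRNPU had a difference of 0.70 (SE 0.25, 95% interval 0.20 to 1.20, adjusted p = 0.253) and SF3B3 one of 0.66 (SE 0.28, 95% interval 0.097 to 1.22, adjusted p = 0.446). HNRNPK had the largest difference, 0.76 (SE 0.39, 95% interval -0.029 to 1.54, adjusted p = 0.668), and SF3B4 and SNRPA1 the lowest, at -0.45 (-0.94 to 0.037) and -0.33 (-0.94 to 0.28). The members' median was 0.12 (all genes 0.011), with 18 of 29 above 0 (62.1%, against 51.4% of all genes), of them 9 of 11 hnRNP proteins.

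For turkey liver 0 members passed the adjusted p (0.0467% of all genes) and 2 the unadjusted p (5.16%), HNRNPU at 0.71 (SE 0.32, 95% interval 0.073 to 1.35, adjusted p = 0.853) and SF3B4 at -0.77 (SE 0.31, 95% interval -1.398 to -0.15, adjusted p = 0.806). SRSF10 was highest there at 0.84 (-0.18 to 1.86) and HNRNPKL lowest at -0.92 (-1.99 to 0.16). For quail liver 0 passed the adjusted p (0.513%) and 2 the unadjusted p (9.75%), SF3A2 at 1.16 (SE 0.47, 95% interval 0.21 to 2.11, adjusted p = 0.385) and SRSF1 at -0.71 (SE 0.27, 95% interval -1.26 to -0.17, adjusted p = 0.334). HNRNPK was next highest at 0.94 (-0.062 to 1.95) and SF3B4 next lowest at -0.54 (-1.16 to 0.086). For duck liver 0 passed the adjusted p (0.762%) and 3 the unadjusted p (7.89%), among them HNRNPU at 0.92 (SE 0.32, 95% interval 0.28 to 1.56, adjusted p = 0.257). The others were HNRNPA1 at 0.42 (0.01 to 0.83) and SNRPN at 0.70 (0.11 to 1.28). SRSF11 was second highest there at 0.75 (-0.22 to 1.72), and SF3B4 and SRSF3 were lowest at -0.55 (-1.17 to 0.073) and -0.46 (-1.402 to 0.48).

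For kestrel liver 0 members passed the adjusted p (1.21% of all genes) and 2 the unadjusted p (8.82%). HNRNPAB was highest at 1.29 (SE 0.58, 95% interval 0.11 to 2.47, adjusted p = 0.465) and SF3B3 second at 1.14 (SE 0.38, 95% interval 0.37 to 1.91, adjusted p = 0.174), the lowest adjusted p of any member against chicken liver. SRSF11 and SNRPD3 were lowest at -0.60 (-1.65 to 0.45) and -0.50 (-1.39 to 0.38). For sparrow liver 0 passed the adjusted p (0.793%) and 2 the unadjusted p (7.16%), HNRNPU at 0.96 (SE 0.34, 95% interval 0.27 to 1.65, adjusted p = 0.307) and HNRNPK at 1.09 (SE 0.54, 95% interval 0.0044 to 2.17, adjusted p = 0.689). SNRPA1 and SRSF5A were lowest at -0.67 (-1.51 to 0.17) and -0.41 (-1.01 to 0.18). HNRNPU thus had an unadjusted interval above 0 in turkey, duck and sparrow, and its level in the chicken livers, 0.39, -0.63, -0.12 and 0.53, entered each of them. On the kestrel and sparrow livers, whose liver marker list was low on every array, the part of tissue content in these values was not tested.

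Hypothalami of turkey, quail and duck were likewise set against the same 4 chicken hypothalami. For their mean 0 members passed the adjusted p (0.498% of all genes) and 3 the unadjusted p (5.52% of all genes). SF3A2 was at -1.14 (SE 0.40, 95% interval -1.95 to -0.34, adjusted p = 0.418), SRSF3 at -0.96 (SE 0.39, 95% interval -1.76 to -0.16, adjusted p = 0.695) and SRSF10 at 1.10 (SE 0.43, 95% interval 0.24 to 1.97, adjusted p = 0.594), each from a chicken hypothalamus mean at its extreme over the 12 groups. HNRNPAB was second highest at 0.56 (-0.37 to 1.48).

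For turkey hypothalamus 0 members passed the adjusted p (0.14% of all genes) and 1 the unadjusted p (3.22%), SRSF10 at 1.30 (SE 0.54, 95% interval 0.20 to 2.40, adjusted p = 1). SF3A2 and SNRPB2 were lowest at -0.98 (-2.001 to 0.048) and -0.88 (-1.81 to 0.054), and SNRPE second highest at 0.56 (-0.34 to 1.46). For quail hypothalamus 0 passed the adjusted p (0.0467%) and 2 the unadjusted p (3.8%), SF3A2 at -1.398 (SE 0.51, 95% interval -2.42 to -0.37, adjusted p = 0.972) and SRSF3 at -1.05 (SE 0.50, 95% interval -2.07 to -0.035, adjusted p = 0.998). SRSF10 and SNRPE were highest at 0.89 (-0.20 to 1.99) and 0.51 (-0.39 to 1.41). For duck hypothalamus 0 passed the adjusted p (0.327%) and 3 the unadjusted p (8.82%), SF3A2 at -1.05 (SE 0.51, 95% interval -2.07 to -0.026, adjusted p = 0.555), SRSF10 at 1.11 (SE 0.54, 95% interval 0.011 to 2.21, adjusted p = 0.561) and SRSF7L at -0.76 (SE 0.31, 95% interval -1.39 to -0.13, adjusted p = 0.477). SRSF3 was second lowest there at -0.97 (-1.98 to 0.045) and SRSF5 second highest at 1.03 (-0.13 to 2.18).

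Clones of the same gene often disagreed, which bears on every member level above. Of the 29 members 14 rested on 1 clone and 15 on 2 or more. Of the members given per array, SF3A2, SRSF10, HNRNPU, HNRNPK, HNRNPD and SNRPE rested on 1 clone. Over 43 arrays the 40 pairs of clones of the same member correlated at a median of 0.03, from -0.65 to 0.64, and the 4747 such pairs of all genes at a median of 0.06. Both values describe arrays that share groups and carry no test. The 3 HNRNPH3 clones had the highest median correlation, 0.51, although their means over the arrays were -0.041, -0.44 and 0.55. The SRSF1 clones had a correlation of -0.42 and means of -0.27 and 0.53, and the SNRPN clones one of -0.41 with means of 0.19 and 0.61. The low SRSF3 ratio came mostly from 1 clone, as the means were -1.07 and -0.21, and that of SF3B4 likewise, with -0.88 and -0.027. HNRNPA1 clones lay at -0.31, 0.39, -0.045 and 0.10 and HNRNPA2B1 clones at -0.50, 0.17, 0.041, -0.15 and -0.0049. The means were 0.47, -0.56, -0.028 and -0.084 for HNRNPH1, -0.46, 0.35 and -0.33 for HNRNPM and -0.017, 0.39 and -0.32 for SRSF5A. SNRPD3 had -0.67 and -0.081, SF3B3 0.46 and -0.19 and SF3A1 0.18 and -0.18. Only SRSF7L (-0.22 and -0.13) and HNRNPDL (-0.045 and -0.14) had clone means within 0.1 of each other. Over the arrays, however, the SRSF7L clones correlated at only 0.10 and the HNRNPDL clones at 0.38. The clone correlation was 0.27 for SRSF3, -0.015 for SF3B4, 0.32 for SNRPD3, 0.075 for SF3B3 and 0.24 for SF3A1. The within-group SD had a median of 0.703 over members on 1 clone and of 0.390 over members on more, against 0.648 and 0.444 over all genes.

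**Figure D4:**
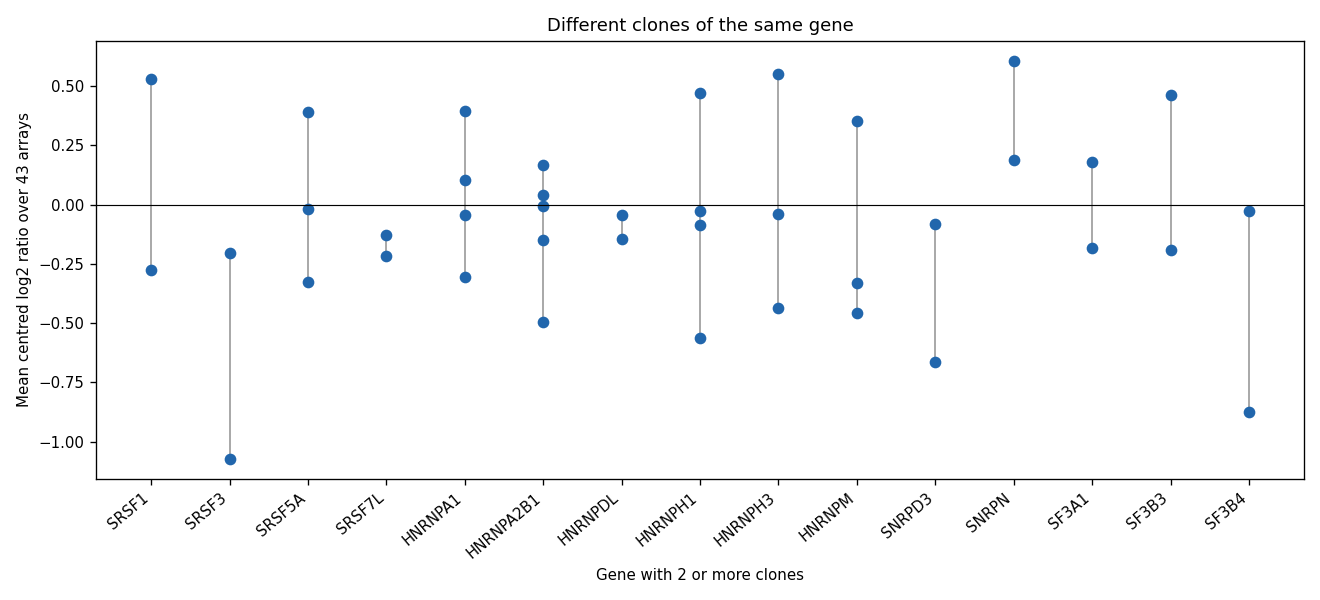
Mean centred log2 ratio over the 43 arrays of each clone (point) of the 15 members with 2 or more clones; lines join the clones of a gene. Clones of SRSF1, HNRNPA1, HNRNPA2B1, HNRNPH1, HNRNPH3, HNRNPM, SRSF5A, SF3A1 and SF3B3 fall on both sides of 0, the array median.

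Much of the scatter between replicates ran along 1 direction. The first principal component of the deviations from the group means held 33.7% of their variance over all genes, and the second 7%. Arrays at its ends were quail liver replicate 2 and quail hypothalamus replicate 1 on one side and quail hypothalamus replicate 3 and chicken hypothalamus replicate 3 on the other. With it 11 of 29 members correlated above 0.5 (33.9% of all genes) and 5 below -0.5 (16.5% of all genes). SNRPD3 (0.81), HNRNPDL (0.80), SF3A1 (0.80) and SRSF3 (0.77) stood at one end, and HNRNPAB (-0.78), SRSF5 (-0.73), HNRNPK (-0.64) and SRSF2 (-0.58) at the other. Members of 1 family thus lay at both ends. With this component taken out, an alternative chosen after seeing the data, SF3B3 was higher in kestrel than in chicken liver by 1.32 (SE 0.29, adjusted p = 0.00643), and 0 members passed in the other 21 comparisons. The component came from the residuals of the same fit, so taking it out shrinks the replicate scatter of genes along it by construction. That adjusted p is therefore too small and cannot be read as a call (0.174 in the main fit). Over all genes the calls there rose from 78 to 133. Pairs of members correlated over the 43 arrays at a median of 0.02, as did all pairs of genes. The highest pair was SRSF2 with SRSF5 at 0.70, and the lowest HNRNPAB with HNRNPDL at -0.69. HNRNPK and HNRNPKL correlated at -0.35 and HNRNPD and HNRNPDL at -0.21.

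Of 177 other genes of splicing and mRNA processing, 92 were on the array. In chicken liver 2 of 92 were higher and 0 lower than in the other chicken tissues, which is 2.17% of them against 1.99% of all genes. In fat 1 was higher (1.09% against 1.24%), and in liver against hypothalamus over 4 species 2 were higher and 1 lower (3.26% against 3.42%). These shares were near those of all genes. The other comparisons of 2 groups or sets of groups with a call had 1 each, where 0.327% to 1.51% of all genes were called. DDX46, an RNA helicase that prepares the U2 snRNP for the branch point, passed in more comparisons than any other of them. DDX46 is on 2 clones, whose agreement is not given here. DDX46 in chicken stood at 0.96, 0.28, 0.298 and 1.24 in liver, -0.72, -0.49, -0.66 and -0.77 in hypothalamus, -0.57, -0.75, -0.52 and -0.49 in breast muscle and -1.36, -0.79, -1.07 and -0.15 in abdominal fat. Every chicken liver lay above every array of the other chicken tissues, a difference of 1.39 (SE 0.23, adjusted p = 9.65e-05). In liver against hypothalamus DDX46 was higher by 0.83 (SE 0.15, adjusted p = 0.000214) over the 4 species and by 1.36 (SE 0.28, adjusted p = 0.00383) in chicken. WBP11, a splicing factor on 1 clone, was higher in chicken liver by 1.53 (SE 0.42, adjusted p = 0.0416) and in liver against hypothalamus by 1.01 (SE 0.27, adjusted p = 0.0251). The WBP11 call in chicken liver was lost without any 1 of 11 arrays (adjusted p up to 0.221): liver replicate 1, 3 or 4, hypothalamus 3 or 4, muscle 1, 2 or 3 and fat 1, 2 or 4. It was also lost with centring by print block (0.24). That over 4 species was lost without duck hypothalamus 3, quail hypothalamus 2 or turkey liver 2 (adjusted p up to 0.0788), with centring by print block (0.171), without the 3 arrays that stood apart (0.0883) and with only the groups compared in the fit (0.0665). FUBP1, which binds single-stranded DNA and RNA, was higher in chicken fat by 0.97 (SE 0.19, adjusted p = 0.00191), a call lost without array centring (0.118) and with the median over its 3 clones (0.67, adjusted p = 0.397). MATR3, a nuclear matrix protein that binds RNA, was lower in liver than in hypothalamus, with a difference of -0.67 (SE 0.19, adjusted p = 0.0389). The MATR3 call was lost without any 1 of 16 of the 29 arrays (adjusted p up to 0.106): chicken hypothalamus 1 or 3, chicken liver 1 or 2, duck hypothalamus 1 or 3, duck liver 3 or 4, quail hypothalamus 1 or 2, quail liver 1, 3 or 4, turkey hypothalamus 1 or 3 or turkey liver 4. It was also lost without array centring (0.229), without the 3 arrays that stood apart (0.0691) and with the replicate block over all groups (0.0969) or within each species (0.173).

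DDX46 read lower in liver against chicken, with a difference of -0.87 over the 5 other species (SE 0.22, adjusted p = 0.0332), -1.38 in kestrel (SE 0.31, adjusted p = 0.00989) and -1.396 in sparrow (SE 0.31, adjusted p = 0.0121). On chicken liver DDX46 had a mean of 0.70 ± 0.48 (SD, n = 4), on turkey liver 0.61 ± 0.46 (SD, n = 4), on quail 0.12 ± 0.38 (SD, n = 4), on duck -0.23 ± 0.33 (SD, n = 4), on kestrel -0.69 ± 0.38 (SD, n = 3) and on sparrow -0.70 ± 0.27 (SD, n = 3). Turkey liver lay close to chicken liver, and turkey, quail and duck did not pass on their own. The first call was lost without chicken liver 1 or 4 or kestrel liver 3 (adjusted p up to 0.44), the second without chicken liver 4 or kestrel liver 2 or 3 (up to 0.1) and the third without chicken liver 1 or 4 or sparrow liver 1 or 3 (up to 0.0825). Without array centring their adjusted p were 0.272, 0.139 and 0.134, and with only the groups compared in the fit 0.12, 0.138 and 0.196. The first was also lost with print-block centring (0.0851), the second with equal spread of arrays (0.0639), and the first and the sparrow call without the 3 arrays that stood apart (0.0506 and 0.0591). The liver marker list averaged 0.77 on chicken liver, 0.31 on turkey, 0.32 on quail, -0.25 on duck, -1.27 on kestrel and -1.36 on sparrow. The list was below 0 on each kestrel and sparrow array, and its part in these values was not tested. For DDX46 too, a poorer match to the chicken clones and less RNA cannot be told apart. In hypothalamus TRA2B, an SR-like activator of splicing on 1 clone, read lower by 1.84 over the 3 other species (SE 0.44, adjusted p = 0.035). Its clone was also lower in liver, with means of -1.43 in turkey, -1.43 in quail and -1.66 in duck against -0.0075 in chicken. Kestrel and sparrow livers had -0.79 and -0.32. A poorer match to this clone and less RNA cannot be told apart. RBM3, a cold-induced RNA-binding protein, read lower by 1.76 in duck hypothalamus (SE 0.40, adjusted p = 0.0309). The TRA2B call was lost without chicken hypothalamus 1, 2 or 4, duck hypothalamus 2 or 3, quail hypothalamus 2 or turkey hypothalamus 2 or 3 (adjusted p up to 0.585), and that of RBM3 without chicken hypothalamus 1 or 2 or duck hypothalamus 2 or 3 (up to 0.513). TRA2B was also lost without array centring (0.065), with equal spread of arrays (0.0625), without the 3 arrays that stood apart (0.0787) and with only the groups compared (0.203). RBM3 was lost without array centring (0.104), without those 3 arrays (0.45), with the median over its clones (0.0902) and with only the groups compared (0.163). In the other comparisons, except the F tests that follow, 0 of the 92 genes passed in limma. There 3 to 10 had an unadjusted p under 0.05, as did 3.22% to 9.75% of all genes. Among the chicken tissues DDX46 and FUBP1 passed, 2.17% of the 92 against 3.53% of all genes. Over the 12 groups DDX46, FUBP1, RBM3 and TRA2B passed, 4.35% against 4.78%. These F tests over several groups were not recomputed with single arrays left out for these genes.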

How the data were processed

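The authors' deposited table holds 1 linear ratio per spot for each of 43 arrays with 19200 spots. The sources used here name no scanner, background correction, normalization or numerator of the ratio. Spot intensities were not used, so the number of arrays limits the precision. Per the labels' protocols 25 micrograms of RNA were labelled per sample with Cy3, the reference always with Cy5. Array medians of the deposited ratio ran from 0.535 to 1.83. Here ratios were put on the log2 scale, centred on the median of each array and averaged over spots of a clone and then over clones of a gene. Names came from the platform annotation: 10601 spots had 1 symbol, 0 several and 8599 none, and 10455 matched the current table. The 6428 genes were fitted in limma 3.58.1 (R 4.3.3) with a mean for each of the 12 groups, moderated by eBayes. P-values were adjusted over all genes by the Benjamini-Hochberg method and genes called at an adjusted p under 0.05. The fit was also run on simulated data, with results that are not given here. Intervals are 95% per gene, not adjusted. There were 22 comparisons. Members named are those called, the 2 highest and 2 lowest per comparison, those with an unadjusted p under 0.05 and the 10 with the highest F, whose values are given per array; other splicing genes are named where called. Members, gene lists and tests were chosen with earlier results of these data known. Residuals of same-numbered arrays of different groups correlated at a median of 0.026 (over 0.1 in 93 of 219 pairs, against 219 of 627 pairs of other numbers). The correlation was over 0.1 for every shared number in 6 of 66 pairs of groups. Of these, 2 were within a species, turkey liver with turkey hypothalamus and chicken muscle with fat. The rest joined different species, such as chicken hypothalamus with turkey liver and with quail liver. Between chicken liver and hypothalamus the correlation was below 0 for each number. The number was also fitted as a block within each species. Chicken hypothalamus came from birds of another line and age than the other chicken tissues, so a shared number there cannot stand for a shared bird. For quail hypothalamus replicate 3 the title was used, although the description has 19 as its number. Alternatives were other normalizations, arrays left out, median over clones, array weights and only the groups compared; 3 were added after seeing the data. Plots were drawn with matplotlib 3.10.9 in Python 3.11.15.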

Additional observations from a re-analysis of the deposited data

Results flagged for a closer look

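Among 70 sets of 4 arrays of the 10 members with the highest F, 2 held 1 array far from the rest by Dixon's test at the 95% level, where chance flags about 1 in 20. HNRNPD on chicken abdominal fat replicate 3 read 0.14, and the remaining fat arrays between -0.21 and -0.16. HNRNPD on duck liver replicate 1 read -0.64, and the remaining duck livers between 0.14 and 0.24.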

How the results depend on the processing

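Of 557 recomputed counts of members called, 547 were 0, as in the values reported. Array weights did not converge and also raised the calls over all 6428 genes, given here after each member count. They gave 1 member in chicken liver (HNRNPA2B1; 283 of all genes) and 1 in chicken liver minus hypothalamus (SF3A2; 343). In quail that difference gave 3 (SF3A2, SRSF1 and SRSF7L; 338), and its differences between species gave 1 (SF3A2; 136). Against chicken hypothalamus, quail gave 4 (HNRNPD, HNRNPU, SF3A2 and SRSF3; 373) and duck 3 (SRSF2, SRSF5 and SRSF7L; 649). Over the 12 groups 9 passed (HNRNPD, SF3A2, SF3B6, SNRPE, SRSF1, SRSF2, SRSF3, SRSF5A and SRSF7L; 2018). Moderated weights gave 0 in all 22 comparisons. Only the groups compared in the fit gave 1 among chicken tissues (with 263 of all genes) and 1 in chicken hypothalamus (with 59), SRSF10 in both. Removal of the first within-group component, which makes p-values too small by its construction, gave 1 in kestrel liver (SF3B3, with 133 of all genes). In these the cause was not tested. The replicate block gave 0 members in all 22 comparisons (lowest adjusted p 0.199), the replicate block within each species, chosen after seeing the data, 0 in the 11 comparisons within species (lowest 0.263), and so did the fit without the 3 arrays that stood apart. The 304 counts with 1 array left out were all 0 (0 to 0), with a lowest adjusted p of 0.0614. Of the recomputed differences of named members 1726 kept their direction and side of the threshold and 1 reversed, SRSF10 in chicken liver at -0.076 with centring by print block, against 0.25. A further 9 passed the threshold under the array weights, compared-groups or component settings. Of the recomputed values of other splicing genes 258 kept the call and 80 lost it, with DDX46 higher in chicken liver and in both liver against hypothalamus comparisons under each alternative. As DDX46 is on 2 clones, their median equals their mean, so the median over clones could not change its difference. Counts over all genes moved more: from 227 among chicken tissues to between 168 and 550, from 128 in chicken liver to between 104 and 283, from 220 in liver against hypothalamus to between 163 and 427, and from 307 over the 12 groups to between 196 (arrays not centred) and 2018 (array weights). In single comparisons they ran for chicken hypothalamus from 31 to between 14 and 225, muscle 38 (18 with the block within species, to 88), fat 80 (53 to 158), liver minus hypothalamus in chicken 97 (86 to 343), turkey 44 (15 to 106), quail 36 (2 to 338), duck 0 (0 to 113) and between species 1 (1 to 136). For liver against chicken they were 79 (56 to 159) over 5 species, 3 (0 to 23) in turkey, 33 (7 to 119) in quail, 49 (25 to 194) in duck, 78 (32 to 133) in kestrel and 51 (28 to 97) in sparrow. For hypothalamus they were 32 (14 to 117) over 3 species, 9 (0 to 29) in turkey, 3 (0 to 373) in quail and 21 (3 to 649) in duck. With 3 or 4 arrays a group, the median SE of a member was 0.397 to 0.429 for single species, and at most 14 of 29 intervals lay within a 2-fold difference.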
